A study of Mus musculus with 6 samples.

Results

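The 10 genes described here encode feedback regulators of the ERK kinase pathway: the MAP kinase phosphatases Dusp4, Dusp5 and Dusp6, the Sprouty genes Spry1, Spry2 and Spry4, the Spred genes Spred1 and Spred2, and the ETS transcription factor genes Etv4 and Etv5. They were taken by name as transcripts that are commonly read as ERK output. No cutoff on a measured value was used, but earlier results of these data were known when they were chosen. All 10 were found among the 38087 gene IDs counted, and all 10 were among the 16666 genes that passed the filter on low counts. All libraries came from HL-1, a line of mouse atrial cardiomyocytes that grew from an atrial tumour driven by a viral T antigen. In the treated group, cells received 100 nM of an siRNA directed at Circ-INSR, the circular transcript named after the insulin receptor gene Insr, and 3 libraries were made. In the control group, cells were given a Scramble siRNA (nc-siRNA in the sample titles), again with 3 libraries. The labels do not state a dose for the control siRNA. No other agent, allele or time point is given in the labels.

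When a growth factor binds its receptor tyrosine kinase, RAS activates RAF, MEK and then ERK, and ERK turns on genes that dampen the same route. DUSP4, DUSP5 and DUSP6 remove phosphate from MAP kinases, with DUSP5 and DUSP6 selective for ERK. Sprouty proteins act between the receptor and RAF, SPRED proteins bring the RAS-GAP neurofibromin to the membrane, and ETV4 and ETV5 carry growth factor signals to target genes. In cardiomyocytes the ERK route is known for its part in growth and hypertrophy. An mRNA level is not a measure of ERK phosphorylation, which these libraries do not record.

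The feedback genes did not move as a block. Spry1 rose 1.86-fold, Dusp5 and Spred1 rose 1.36-fold each and Spred2 rose 1.3-fold after Circ-INSR siRNA. Etv5 fell to 0.786 of its control level. Dusp4, Dusp6, Spry2, Spry4 and Etv4 did not pass the test. In all, 4 of the 10 were higher and 1 was lower at a Benjamini-Hochberg adjusted p under 0.05 (edgeR quasi-likelihood test), and 5 did not pass. Of all genes tested, 57.0% passed in either direction, 28.5% as higher and 28.5% as lower, so the share of feedback genes called was near that of the whole table. The groups did not overlap for 5 of the 10, compared with 63.3% of all genes tested. Of the 10, Spry1 alone was called with a log2 fold change of 0.5 or more in size, and 24.0% of all genes tested were called at that size. The median log2 fold change was 0.12 over the 10 feedback genes and -0.005 over all genes tested, and the median absolute value was 0.24 and 0.29.

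Total counts ran from 68468620 to 77037474 in Circ-INSR siRNA libraries and from 60024750 to 62523602 in control libraries. The feedback genes had between 452 and 5853 counts in each library. The labels do not say whether the libraries of a group came from separate cultures, so p-values reflect the spread between these libraries, which may be technical. Control replicate 3 was the library farthest from its group: the mean chi-square per gene was 31.3 and 21.8 when it was set against control replicates 1 and 2, which gave 6.99 between themselves. The summed level of 10 atrial cardiomyocyte markers was 7416 to 7580 CPM (counts scaled by library total and by TMM, the trimmed mean of M values) in Circ-INSR siRNA libraries and 6677 to 6950 CPM in control libraries. The list went both ways, with 5 markers higher and 3 lower (edgeR adjusted p under 0.05): the myosin heavy chain gene Myh6 averaged 2205 and 1564 CPM, the cardiac actin gene Actc1 1625 and 887.4 CPM, the troponin T gene Tnnt2 1216 and 2021 CPM and the atrial light chain gene Myl7 1241 and 1419 CPM. Sln, the sarcolipin gene, averaged 0.892 and 0.908 CPM. Fibroblast markers, nearly all Col1a1 and with Tcf21 at 0 in every library, summed to 112.6 to 126.5 CPM after Circ-INSR siRNA and 159.2 to 178.4 CPM in controls, while the scarce Col1a2 went the other way, at 0.995 and 0.313 CPM. Immune and blood cell markers summed to 3.26 to 3.67 CPM and 5.29 to 5.95 CPM, and the part of other cells in the results was not tested. The libraries were made from poly(A)-selected mRNA, and the gene counts do not separate the circular transcript from linear Insr. The level of the circular transcript was therefore not measured. Insr had 89.2, 89.2 and 89.2 CPM in Circ-INSR siRNA libraries and 129.0, 127.6 and 103.8 CPM in controls. In bulk RNA, fewer cells of a type and less RNA per cell cannot be told apart.

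**Figure D1:**
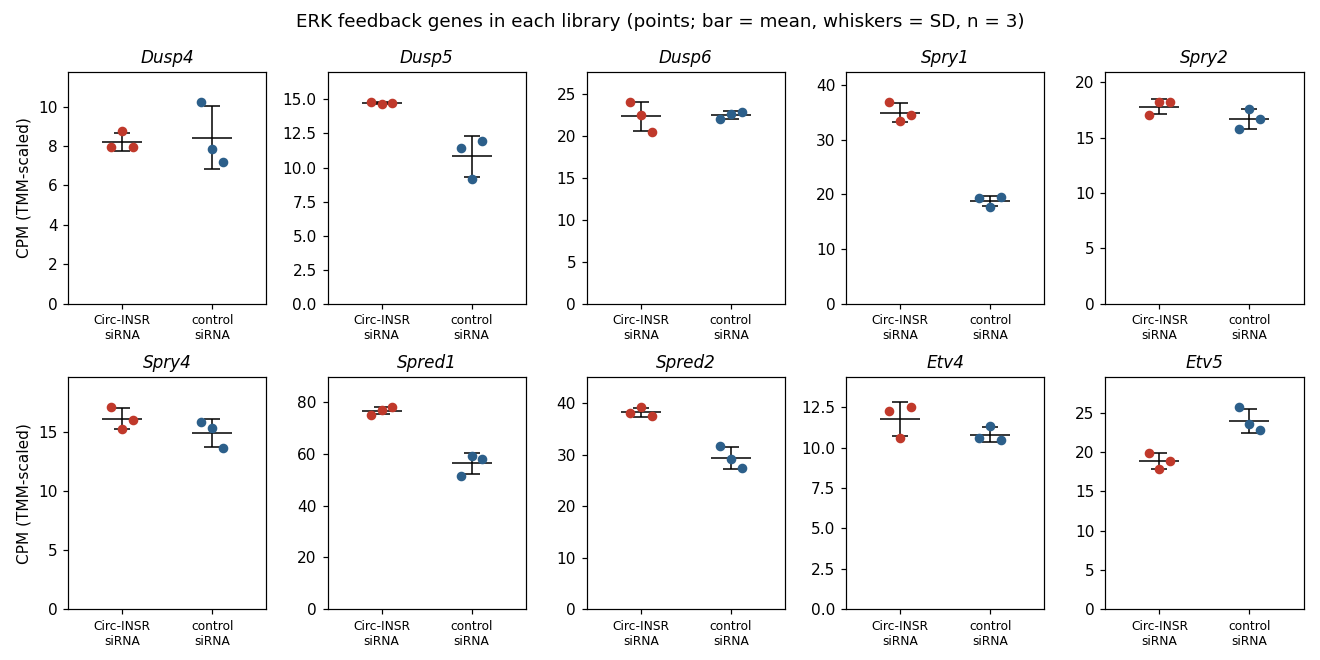
TMM-scaled CPM of each feedback gene (y axis) in the 3 Circ-INSR siRNA libraries (red, left) and the 3 control libraries (blue, right), with the mean as a bar and the SD as whiskers. For Spry1 the Circ-INSR siRNA libraries lie between 33.4 and 36.9 CPM and the controls between 17.7 and 19.5 CPM, whereas for Dusp6 the groups overlap.

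Spry1 encodes a Sprouty protein that restrains signalling from receptor tyrosine kinases, and its gene (ENSMUSG00000037211) lies on mm10 chromosome 3, 37639947 to 37644598, on the plus strand. It had 36.9, 33.4 and 34.6 CPM in Circ-INSR siRNA libraries 1 to 3, and 19.3, 17.7 and 19.5 CPM in control libraries 1 to 3. Every Circ-INSR siRNA library was above every control. The log2 fold change was 0.89 (SE 0.06; edgeR adjusted p = 1.88e-07), larger in size than that of 88.4% of all genes tested. The antisense gene Gm42922 shares 710 exonic bases with Spry1, and without a stated strand setting the reads of both cannot be told apart.

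Spry2, whose product binds GRB2 and the ubiquitin ligase CBL (ENSMUSG00000022114; chromosome 14, 105891947 to 105896819, minus strand), had 17.0, 18.2 and 18.2 CPM in Circ-INSR siRNA libraries and 15.8, 17.6 and 16.7 CPM in controls. Spry4, a further Sprouty gene (ENSMUSG00000024427; chromosome 18, 38586247 to 38601415, minus strand), had 17.0, 15.3 and 16.0 CPM after Circ-INSR siRNA and 15.8, 15.3 and 13.6 CPM in controls. The groups overlapped for both genes. The 95% interval of the fold change was 0.971 to 1.18 for Spry2 and 0.966 to 1.21 for Spry4 (edgeR adjusted p = 0.218 each). The interval of Spry1, 1.7 to 2.03, lay above both.

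Levels of different genes were set side by side as CPM per kb of annotated exon. Spry1 averaged 12.03 ± 0.603 CPM per kb after Circ-INSR siRNA and 6.48 ± 0.327 in controls (SD, n = 3 each). Spry2 averaged 8.54 ± 0.325 and 7.996 ± 0.434 CPM per kb. Spry4 averaged 3.39 ± 0.189 and 3.13 ± 0.245 CPM per kb. Spry1 made up 51.9%, 49.1% and 49.6% of the summed CPM per kb of the 3 Sprouty genes in Circ-INSR siRNA libraries, and 37.9%, 34.4% and 38.2% in controls. Spry2 made up 35.7 ± 2.01% after Circ-INSR siRNA and 45.4 ± 2.16% in controls, where its share was the largest in every library. The groups did not overlap for the share of Spry1, with p = 0.1 in an exact two-sided permutation test, the smallest p that 3 libraries against 3 can give.

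Spred1 and Spred2 both rose. Spred1, the gene affected in Legius syndrome in humans (ENSMUSG00000027351; chromosome 2, 117121374 to 117182279, plus strand), had 75.3, 77.01 and 78.1 CPM in Circ-INSR siRNA libraries and 51.6, 59.3 and 58.3 CPM in controls. Its log2 fold change was 0.45 (SE 0.06; edgeR adjusted p = 2.89e-05), and no library of the treated group was as low as any control.

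Spred2 (ENSMUSG00000045671; chromosome 11, 19924375 to 20024026, plus strand) had 38.1, 39.2 and 37.5 CPM after Circ-INSR siRNA and 31.8, 29.1 and 27.5 CPM in controls. Here too the groups did not overlap, with a log2 fold change of 0.38 (SE 0.06; edgeR adjusted p = 0.000157). The fold changes of both Spred genes had overlapping 95% intervals, 1.25 to 1.48 for Spred1 and 1.19 to 1.42 for Spred2. Spred1 made up 57.7 ± 0.772% of their summed CPM per kb after Circ-INSR siRNA and 56.6 ± 3.54% in controls, and these shares overlapped.

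**Figure D2:**
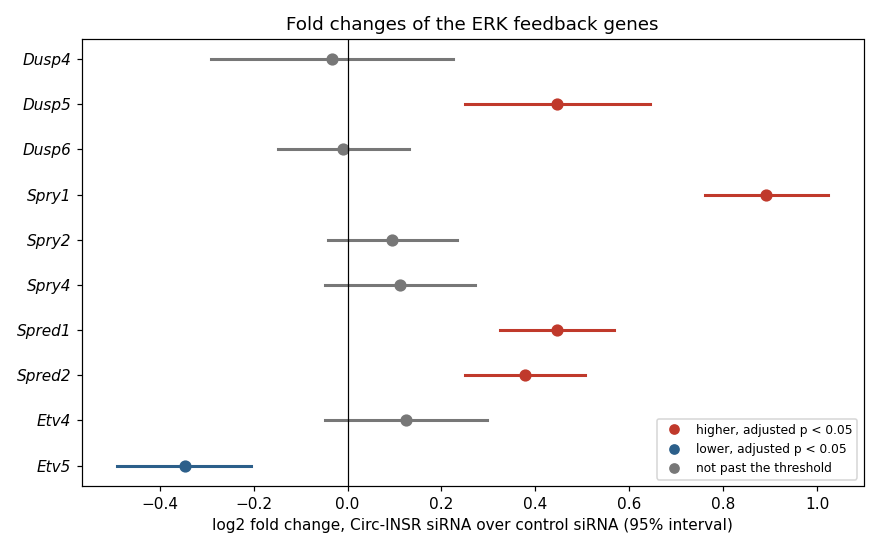
Log2 fold change of each feedback gene, Circ-INSR siRNA over control siRNA (x axis), as a point with its 95% interval from the edgeR fit. The intervals of Spry1, Dusp5, Spred1 and Spred2 lie above 0, that of Etv5 lies below 0, and those of the other 5 genes span 0.

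Among the phosphatases, Dusp5 was the member that rose. It encodes an inducible nuclear phosphatase selective for ERK (ENSMUSG00000034765; chromosome 19, 53529109 to 53542431, plus strand). It had 14.8, 14.7 and 14.7 CPM in Circ-INSR siRNA libraries, and 11.4, 9.13 and 11.9 CPM in controls. The Circ-INSR siRNA libraries lay close together above a wider control group, and the log2 fold change was 0.45 (SE 0.09; edgeR adjusted p = 0.00117). Dusp5 shares 547 exonic bases with the antisense gene AC137853.2, with the same limit as for Spry1.

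Dusp6 encodes a cytoplasmic phosphatase selective for ERK (ENSMUSG00000019960; chromosome 10, 99263231 to 99267489, plus strand). It had 24.03, 22.5 and 20.5 CPM after Circ-INSR siRNA and 21.96, 22.6 and 22.9 CPM in controls. The controls lay inside the range of the Circ-INSR siRNA libraries. The 95% interval of its fold change ran from 0.902 to 1.10 (edgeR adjusted p = 0.915).

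Dusp4 encodes an inducible nuclear phosphatase that also acts on other MAP kinases (ENSMUSG00000031530; chromosome 8, 34807297 to 34819894, plus strand). It had 7.94, 8.75 and 7.97 CPM after Circ-INSR siRNA and 10.2, 7.83 and 7.20 CPM in controls. Control replicate 1 was the highest of the 6 libraries, and the interval of the fold change, 0.818 to 1.17, was the widest of the 10 genes on the log2 scale (edgeR adjusted p = 0.827). Dusp5 made up 37.1 ± 1.39% of the summed CPM per kb of the 3 phosphatase genes after Circ-INSR siRNA and 29.8 ± 2.94% in controls (exact two-sided permutation p = 0.1), whereas Dusp6 held the largest share in every library of both groups.

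The ETS factor genes Etv4 and Etv5 did not move together. Etv5 (ENSMUSG00000013089; chromosome 16, 22381309 to 22439719, minus strand) had 19.9, 17.9 and 18.8 CPM in Circ-INSR siRNA libraries and 25.7, 23.5 and 22.7 CPM in controls. Every Circ-INSR siRNA library was below every control, and the log2 fold change was -0.35 (SE 0.07; edgeR adjusted p = 0.000702). When the size was tested against an absolute log2 fold change of 0.25 with glmTreat, Etv5 did not pass (adjusted p = 0.0732).

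Etv4 (ENSMUSG00000017724; chromosome 11, 101769742 to 101785371, minus strand) had 12.3, 10.6 and 12.5 CPM after Circ-INSR siRNA and 10.6, 11.3 and 10.5 CPM in controls. The groups overlapped, and the interval of the fold change was 0.967 to 1.23 (edgeR adjusted p = 0.201). When each library was corrected for exonic length and GC content, Etv4 passed at a log2 fold change of 0.23 (edgeR adjusted p = 0.0161). Etv4 made up 45.2 ± 1.44% of the summed CPM per kb of both genes after Circ-INSR siRNA and 37.4 ± 1.90% in controls, with no overlap between the groups (exact two-sided permutation p = 0.1). Which gene held the larger share after Circ-INSR siRNA depended on the length used. By the longest transcript, Etv4 averaged 4.92 and Etv5 4.74 CPM per kb after Circ-INSR siRNA, and 4.51 and 6.03 in controls.

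**Figure D3:**
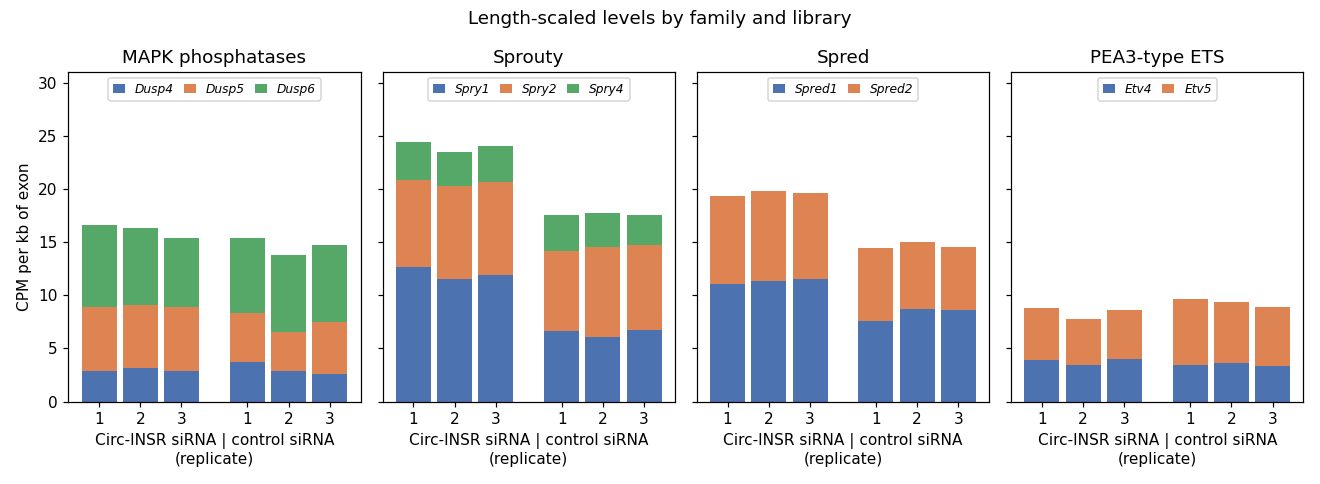
CPM per kb of exon (y axis), stacked by gene within each family, in Circ-INSR siRNA libraries 1 to 3 (left) and control libraries 1 to 3 (right) of each panel. The summed Sprouty level lies between 23.4 and 24.4 after Circ-INSR siRNA and between 17.5 and 17.8 in controls, and the added height is mostly Spry1.

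The order of the length-scaled levels also differed between groups. After Circ-INSR siRNA the order was Spry1, Spred1, Spry2, Spred2, Dusp6, Dusp5, Etv5, Etv4, Spry4 and Dusp4, with means from 12.03 down to 3.0 CPM per kb. In controls it was Spred1, Spry2, Dusp6, Spry1, Spred2, Etv5, Dusp5, Etv4, Spry4 and Dusp4, with means from 8.31 down to 3.07 CPM per kb. Spry1 was therefore at rank 1 after Circ-INSR siRNA and at rank 4 in controls. Rank 1 depended on the length used: by the longest transcript, Spred1 averaged 12.76 and Spry1 12.6 CPM per kb after Circ-INSR siRNA. Other neighbours changed places too. By the longest transcript, Spred2 averaged 8.60 and Spry2 8.54 CPM per kb after Circ-INSR siRNA, and Etv4 4.92 and Etv5 4.74. In controls, Dusp6 averaged 8.04 and Spry2 7.996 CPM per kb by that length. With the union of annotated exons, neighbours whose library ranges overlapped after Circ-INSR siRNA were Spry1 with Spred1, Spry2 with Spred2, and Etv4 with Spry4. In controls they were Spred1 with Spry2, Spry1 with Spred2, Spred2 with Etv5, and Spry4 with Dusp4. Etv4 has 12 annotated transcripts, and with its longest transcript in place of the union of exons its control level was 4.51 rather than 3.48 CPM per kb, above the 4.37 CPM per kb of Dusp5.

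The genes whose log2 CPM followed a feedback gene most closely over the 6 libraries were listed as a description. For Spry1 they were Mogs, Actb and Agk, with Pearson r of 0.999 each. For Etv5 they were Usp43, Tedc1 and Rap1gap, with r of 0.996, 0.995 and 0.994. For Dusp6, where the groups overlapped, they were Slc25a33, Fbxo30 and D10Wsu102e, with r of 0.929, 0.915 and 0.913. For a gene whose groups were apart, such an r largely repeats the difference between the groups.

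Promoter windows of 300 bases, from 250 bases before to 50 after the RefSeq start site (GRCm38.p6), were found for 7 of the 10 genes, in 8 windows since Etv5 has 2. They were searched on both strands for the ETS core GGAAGT, the core TGAATG of sites of the repressor Capicua (CIC), the CArG box bound by SRF, the AP-1 site TGACTCA and the cAMP response element TGACGTCA. These factors are known to act downstream of growth factor signals. The ETS core was in 3 of the 8 windows and in 23.8% of all 32851 windows. The core TGAATG was in 3 of the 8 and in 12.7% of all windows. The CArG box was in 1 of the 8 and in 1.63% of all windows. The AP-1 site and the cAMP response element were in 0 of the 8, and in 5.20% and 1.79% of all windows. A match describes the letters only, not a bound site.

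The windows below are those of Spry1 and Dusp5, which rose, of Dusp6, which did not pass the test, and of the second Etv5 start, which holds the most TGAATG cores. Each reads from 5′ to 3′ on the strand of the gene, with motif matches in capitals. They lie at chr3:37639697-37639996 (plus strand) for Spry1, chr19:53528895-53529194 (plus strand) for Dusp5, chr10:99262981-99263280 (plus strand) for Dusp6 and chr16:22438319-22438618 (minus strand) for Etv5.
Spry1: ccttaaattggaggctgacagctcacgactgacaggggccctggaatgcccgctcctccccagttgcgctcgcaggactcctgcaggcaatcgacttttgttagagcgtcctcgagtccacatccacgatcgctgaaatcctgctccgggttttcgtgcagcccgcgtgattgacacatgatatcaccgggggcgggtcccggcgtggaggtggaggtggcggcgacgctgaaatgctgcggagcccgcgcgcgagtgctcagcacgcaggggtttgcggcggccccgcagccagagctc
Dusp5: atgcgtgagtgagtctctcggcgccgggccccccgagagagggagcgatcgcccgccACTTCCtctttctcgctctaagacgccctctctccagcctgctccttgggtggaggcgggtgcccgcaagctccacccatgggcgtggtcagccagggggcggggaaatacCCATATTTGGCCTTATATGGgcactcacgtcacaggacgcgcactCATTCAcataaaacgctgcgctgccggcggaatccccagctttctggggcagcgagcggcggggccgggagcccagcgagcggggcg
Dusp6: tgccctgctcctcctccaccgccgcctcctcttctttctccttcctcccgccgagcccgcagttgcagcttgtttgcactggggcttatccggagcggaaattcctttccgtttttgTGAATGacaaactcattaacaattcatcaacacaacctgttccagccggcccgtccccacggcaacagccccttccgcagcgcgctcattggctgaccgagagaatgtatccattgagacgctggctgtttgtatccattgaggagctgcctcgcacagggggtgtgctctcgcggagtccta
Etv5: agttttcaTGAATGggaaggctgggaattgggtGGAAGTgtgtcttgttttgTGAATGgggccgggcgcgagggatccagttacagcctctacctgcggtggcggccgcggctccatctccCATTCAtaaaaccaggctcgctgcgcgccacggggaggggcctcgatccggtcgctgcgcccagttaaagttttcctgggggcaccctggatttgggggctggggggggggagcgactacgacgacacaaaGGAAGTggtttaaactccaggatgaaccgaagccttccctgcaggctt

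In the Dusp5 window, CArG boxes begin 82 and 72 bases before the start site and are directly adjacent. An ETS core and a TGAATG core, both on the other strand, lie apart from them, beginning 193 and 37 bases before the start. The Dusp6 window holds 1 TGAATG core, 133 bases before the start. The Etv5 window holds 3 TGAATG cores and 2 ETS cores, and the window at the other Etv5 start holds 0 of the motifs searched. The last bases of the window with the cores were found in 0 of 5 annotated Etv5 transcripts, and those of the other window in 3 of 5. For the Spred1 window the count was 0 of 2. The window of Spry1, the gene with the largest rise, holds 0 of them, as do those of Spry2 and Spred1, while that of Spred2 holds 1 ETS core.

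Relatives of the feedback genes outside the 10 also went both ways. Of 10 relatives, 9 were counted and tested, and 4 were higher and 3 lower (edgeR adjusted p under 0.05). For this and each list that follows, the whole table gives 28.5% higher and 28.5% lower, 57.0% in all. Dusp9, a cytoplasmic ERK phosphatase gene, had 5.54, 5.17 and 4.95 CPM in Circ-INSR siRNA libraries and 2.45, 2.60 and 2.45 CPM in controls, a log2 fold change of 1.06 (SE 0.10). Dusp16, whose product acts on JNK, averaged 34.1 ± 1.20 and 21.1 ± 0.784 CPM (SD, n = 3 each). Dusp8, a phosphatase gene for JNK and p38, had 15.5, 14.1 and 14.0 CPM after Circ-INSR siRNA and 39.8, 38.1 and 38.8 CPM in controls, a log2 fold change of -1.42 (SE 0.06). Its change was larger in size than that of any of the 10 feedback genes.

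Dusp2 was lower by a smaller amount, at -0.42 (SE 0.16; edgeR adjusted p = 0.0453), and so was Dusp7, at -0.14 (SE 0.05; edgeR adjusted p = 0.0429). Dusp1 and Dusp10 did not pass (edgeR adjusted p = 0.172 and 0.973). Spred3 rose by 0.26 (SE 0.09; edgeR adjusted p = 0.0222), as its relatives Spred1 and Spred2 did. Etv1, the remaining gene of the ETV4 and ETV5 subfamily, rose by 0.80 (SE 0.12; edgeR adjusted p = 0.000144), while Etv5 fell. Etv1 was scarce, at 3.997 ± 0.359 CPM after Circ-INSR siRNA and 2.29 ± 0.25 CPM in controls.

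Among other transcripts used as ERK output, Fosl1, Lif and Ccnd1 had the largest falls. Of 16 listed, 14 were tested, with 8 lower, 1 higher and a median log2 fold change of -0.23, against -0.005 over all genes tested, of which 28.5% were lower and 28.5% higher. Fosl1, an AP-1 subunit gene, averaged 1.89 ± 0.0992 CPM after Circ-INSR siRNA and 8.95 ± 0.971 CPM in controls. Lif, a cytokine gene, averaged 11.5 ± 0.453 and 32.9 ± 1.68 CPM, and Ccnd1, the cyclin D1 gene, 18.1 ± 1.05 and 36.7 ± 2.62 CPM (SD, n = 3 each). Myc was the gene that rose, with 21 ± 0.277 CPM after Circ-INSR siRNA and 13.9 ± 0.458 CPM in controls. Hbegf and Zfp36 did not pass (edgeR adjusted p = 0.660 and 0.886), like Dusp6.

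**Figure D4:**
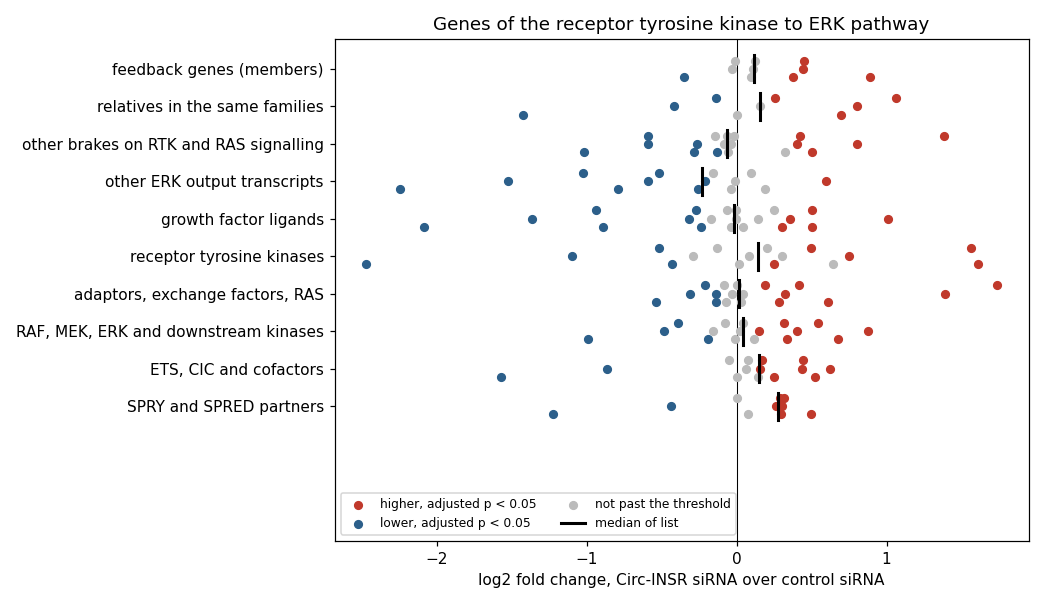
Log2 fold change, Circ-INSR siRNA over control siRNA (x axis), of the tested genes of 10 lists along the route from growth factors to ERK and its feedback (rows), with red and blue points past the threshold and the list median as a black bar. The feedback genes lie between -0.35 and 0.89, and the output list has the lowest median, -0.23. The row labelled as other brakes is a list of modulators, and not all of them are brakes.

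A further list of modulators of receptor or RAS signalling, not all of them brakes, gave 5 higher and 6 lower of 18 tested. This share was near the 57.0% called over all genes tested. Flrt3 (0.80, SE 0.07), the RAS-GAP gene Rasa1 (0.50, SE 0.05) and Lrig1 (0.42, SE 0.05) had the largest log2 rises among those with a log2 CPM of at least 1, and the scarcer Dok2 rose by 1.39 (edgeR adjusted p = 0.00182). The heparan sulfatase gene Sulf2 (-1.02, SE 0.06), Dok1 (-0.59, SE 0.05) and Il17rd, whose product Sef belongs to the same FGF feedback group as Sprouty (-0.59, SE 0.08), had the largest falls. Nf1, which encodes the neurofibromin that SPRED proteins recruit, did not pass, at 66.2 ± 4.23 CPM after Circ-INSR siRNA and 68.0 ± 8.66 CPM in controls. Of 10 partners and modifiers of SPRY and SPRED proteins, 6 were higher and 2 lower, among them the kinase genes Tesk1 (0.49, SE 0.04) and Dyrk1a (0.32, SE 0.04) and the caveolin gene Cav1 (0.30, SE 0.06). The prolyl hydroxylase gene Egln3 changed by -1.23 (SE 0.07) and Rnf11 by -0.44 (SE 0.07).

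Upstream of the feedback genes, 5 of 16 receptor tyrosine kinase genes tested were higher and 4 lower. Fgfr1, an FGF receptor gene, averaged 48.1 ± 1.06 CPM after Circ-INSR siRNA and 15.7 ± 0.825 CPM in controls, a log2 fold change of 1.61 (SE 0.05). Erbb4 rose by 0.75 (SE 0.07). Kdr, a VEGF receptor gene, rose by 1.57 (SE 0.06), while the other endothelial genes of the marker list stayed scarce: Pecam1 averaged 0.983 and 0.730 CPM, Cdh5 0.0192 and 0.0212 CPM, and Emcn had 0 counts. Axl (-1.10, SE 0.06), Fgfr3 (-0.52, SE 0.05) and the host gene Insr (-0.43, SE 0.07) were lower, and Egfr was at 0.183 and 0.148 CPM. Of ligand genes 5 of 20 tested were higher, led by Igf2 (1.01, SE 0.12), Gas6 (0.50, SE 0.04) and Vegfb (0.50, SE 0.05). Another 7 were lower, with Pdgfb (-1.36, SE 0.10), Fgf1 (-0.89, SE 0.06) and Pdgfa (-0.32, SE 0.05) lowest among those expressed at a log2 CPM of at least 1.

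Of adaptor, exchange factor and RAS genes 7 of 18 were higher and 5 lower. Rasgrp3, a RAS exchange factor gene, averaged 41.6 ± 1.6 CPM after Circ-INSR siRNA and 12.5 ± 1.40 CPM in controls. Mras (0.61, SE 0.06) and Rras2 (0.42, SE 0.06) rose, whereas Hras (-0.54, SE 0.05), Gab2 (-0.31, SE 0.07) and Ptpn11 (-0.21, SE 0.05) fell. Of the kinases and scaffolds 7 of 17 were higher and 4 lower. Map2k1, which encodes MEK1, fell to 57.4 ± 2.44 CPM after Circ-INSR siRNA, against 80.1 ± 0.970 CPM in controls (SD, n = 3 each). The ERK-activated kinase genes Rps6ka3 (0.88, SE 0.05) and Rps6ka1 (0.67, SE 0.06) rose, and Rps6ka2 (-0.99, SE 0.08) and Mknk2 (-0.39, SE 0.05) fell.

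Of 14 listed genes for ETS factors, Capicua, SRF and other transcription factors or cofactors, 7 were higher and 2 lower. Cic, which encodes the repressor Capicua, did not pass, at 152.6 ± 2.37 CPM after Circ-INSR siRNA and 152.5 ± 24.9 CPM in controls. Srf, whose product binds the CArG box, rose by 0.45 (SE 0.05), Erf, an ETS repressor gene that ERK acts on, by 0.53 (SE 0.04) and Elk3 by 0.63 (SE 0.15). Ets1 changed by -1.57 (SE 0.09) and Ets2 by -0.87 (SE 0.05), in the same direction as Etv5. What these factors bound was not measured.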

How the data were processed

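Poly(A)-selected mRNA of 6 HL-1 libraries was made into directional libraries with an NEBNext Ultra II kit, per the labels' protocols. The authors deposited whole-number counts per Ensembl gene, not normalized. Build mm10 is named in the submitters' processing notes, as are STAR 2.5.0c and featureCounts 1.6.4. The sources used here give neither the annotation release nor the strand setting. Antisense genes overlap exons of Dusp5 and Spry1 by 547 and 710 bases, and neither antisense gene was among the gene IDs counted. In every library genes with 2 counts (1434 to 1544) outnumbered genes with 1 (1033 to 1157), as when both mates are counted.

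Symbols, positions and exonic lengths came from GENCODE M21, which held 36308 of the 38087 IDs. Counts were tested with edgeR 4.0.16 in R 4.3.3 (filterByExpr, minimum count 10, minimum total 15; TMM factors 0.983 to 1.03; robust quasi-likelihood F-test with group as the only term), adjusted over all 16666 genes tested. SE was taken from the fold change and the F statistic, and 95% intervals use the fit's degrees of freedom. Of these steps, only the edgeR fit was run on simulated counts, in which far fewer genes were changed than were called here. Alternatives were other scalings, filters, DESeq2 1.42.0, limma-voom 3.58.1, glmTreat, halved counts, each library left out, a replicate block and a trend on length and GC content.

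The genes and lists were chosen with earlier results of these data known. All 10 feedback genes are named. Of each other list, the text names up to 3 rises and 3 falls, the largest of those that passed and that averaged 1 or more in log2 CPM. A gene that this rule would name is not reported here. Genes named beyond that rule were chosen after their values were seen. The likeness lists take the 3 highest Pearson r among genes at a log2 CPM of at least 3.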

Additional observations from a re-analysis of the deposited data

How the results depend on the processing

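Spry1, Dusp5, Spred1 and Spred2 stayed higher and past the threshold under all 17 alternatives, with log2 fold changes of 0.85 to 0.99, 0.34 to 0.55, 0.38 to 0.48 and 0.33 to 0.44. Etv5 stayed lower (-0.39 to -0.30) and past the threshold under 16, the exception being glmTreat against 0.25. With glmTreat 2410 genes were higher and 2802 lower, and of the feedback genes 4 were higher and 0 lower. The lower counts follow from its stricter question. Leaving out 1 library at a time gave 4209 to 5150 genes higher and 4148 to 5064 lower, and 4 and 1 feedback genes each time, also without control replicate 3.

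Values near 0 changed sign without passing the threshold, and the cause was not tested. Dusp4 was at 0.064 with the trend on length and GC content removed and ran from -0.13 to 0.13 with libraries left out, the highest value being without control replicate 1. Dusp6 ran from -0.061 to 0.052 with libraries left out, at 0.052 without Circ-INSR siRNA replicate 3 and 0.007 without control replicate 3. Etv4 passed only with that trend removed, among the 17 alternatives. By the longest transcript, control levels of Dusp6, Etv4 and Spred1 were 8.04, 4.51 and 9.37 CPM per kb.

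With the replicate number as a replicate block, 4968 genes were higher and 4900 lower, and 4 and 1 feedback genes. Deviations of same-numbered libraries correlated at 0.081, 0.265 and 0.205, each library's highest with its own number, a hint from the data that is not in the labels.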
